A study of Mus musculus with 4 samples.

Results

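The genes Foxp3, Ikzf2, Ikzf4, Lrrc32, Icos, Ccr8 and Areg, which mark regulatory T (Treg) cells, were followed in single-cell RNA-seq of MC38 tumors. They were taken by gene symbol, 7 of the 32285 genes counted. The rule used no measured value, but earlier results of these data were known when the genes were chosen. MC38 is a mouse colon adenocarcinoma cell line. The tumors came from wild type (WT) MC38 cells or from MC38 cells in which the RAC1 A159V substitution had been knocked in with CRISPR-Cas9, and were grown in C57BL/6 mice treated with IgG control antibody or with antibody to the checkpoint receptor PD1. Each combination of genotype and antibody is 1 library (WT IgG and WT anti-PD1, then A159V IgG with A159V anti-PD1), so no difference between groups has a replicate check. The mutation is in the tumor cells alone, so the T cells of all 4 groups are those of the host. The study obtained several edited clones and presented 1 of them unless it said otherwise, so the A159V libraries stand for a single clone, and the number of mice in each library is not given in the sources used here. Beads were used to part CD45+ from CD45− cells, which were mixed again before loading, so the number of T cells in a library does not give their density in the tumor.

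Treg cells are CD4+ T cells that restrain other T cells, and in tumors they are known for limiting the immune attack on tumor cells. Foxp3 is the transcription factor that sets their identity. Ikzf2 (Helios) and Ikzf4 (Eos) are Ikaros-family zinc finger factors that work beside it. Lrrc32 (GARP) is a surface protein that docks latent TGF-β, Icos is a costimulatory receptor whose ligand sits on antigen-presenting cells, and Ccr8 is a receptor for the chemokines Ccl1 and Ccl8. Areg (amphiregulin) is a secreted ligand of the EGF receptor that Treg cells and group 2 innate lymphoid cells (ILC2) release during tissue repair, and epithelial cells make it too.

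In GRCm38 coordinates of the GENCODE M21 annotation, Foxp3 lies at chrX:7573644-7595245 on the plus strand, Ikzf2 at chr1:69531214-69687245 on the minus strand and Ikzf4 at chr10:128630843-128645991 on the minus strand. Lrrc32 lies at chr7:98489283-98502181, Icos at chr1:60977927-61000320, Ccr8 at chr9:120092114-120094906 and Areg at chr5:91139599-91148432, all on the plus strand. The RefSeq promoter table (GRCm38.p6) held a window before the start for 3 of the 7 genes, with a pair of starts for Foxp3. They are Foxp3, shown because it defines the lineage, Ccr8, shown because it was lower in the anti-PD1 libraries, and Areg, shown because it differed between WT and A159V tumor-like cells. The 250 bases upstream of each start are printed 5′ to 3′ on the plus strand, with motif matches in capitals.
Areg, chr5:91139349-91139598: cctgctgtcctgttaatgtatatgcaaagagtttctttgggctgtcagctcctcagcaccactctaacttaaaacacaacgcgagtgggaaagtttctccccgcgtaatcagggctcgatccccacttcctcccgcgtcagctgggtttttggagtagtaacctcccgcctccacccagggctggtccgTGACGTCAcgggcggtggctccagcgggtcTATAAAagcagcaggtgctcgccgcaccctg
Ccr8, chr9:120091883-120092132: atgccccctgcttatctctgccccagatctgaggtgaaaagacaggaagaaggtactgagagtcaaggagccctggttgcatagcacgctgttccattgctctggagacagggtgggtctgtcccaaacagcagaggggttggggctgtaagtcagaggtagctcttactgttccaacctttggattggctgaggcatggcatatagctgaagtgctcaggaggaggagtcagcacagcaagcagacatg
Foxp3, first start, chrX:7579426-7579675: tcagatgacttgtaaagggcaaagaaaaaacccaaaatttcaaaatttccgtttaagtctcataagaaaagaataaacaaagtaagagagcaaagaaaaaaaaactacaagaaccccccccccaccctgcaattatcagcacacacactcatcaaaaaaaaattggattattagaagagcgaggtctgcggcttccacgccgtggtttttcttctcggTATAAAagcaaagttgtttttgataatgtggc
Foxp3, second start, chrX:7580233-7580482: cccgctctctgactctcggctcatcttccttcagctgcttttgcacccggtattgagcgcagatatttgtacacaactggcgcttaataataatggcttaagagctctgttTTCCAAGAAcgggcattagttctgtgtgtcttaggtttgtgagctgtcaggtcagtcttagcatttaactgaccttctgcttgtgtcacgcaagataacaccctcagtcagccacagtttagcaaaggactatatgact
The following motifs were searched on both strands, and no match overlapped another in these windows. They were TATAAA, the letters of the TATA box, TGACGTCA, the cyclic AMP response element (CRE), TGANTCA (AP-1), GTAAACA (forkhead) and TTCNNNGAA (STAT). The Areg window held the CRE, beginning 61 bases before the start, and the TATA box, beginning 31 bases before it. Of all 32851 mouse windows in the table, 1.55% held the CRE and 12.4% the TATA box. The first Foxp3 window held a TATA box 32 bases before its start, the second held TTCCAAGAA, which has the STAT pattern found in 7.02% of windows, and the Ccr8 window held no match. AP-1 and forkhead matches, found in 6.75% and 3.17% of all windows, occurred in none of the 4. A match describes the letters and is not evidence of a bound site.

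After filtering, 6867, 6466, 7603 and 8248 cells remained in the libraries WT IgG and WT anti-PD1, then A159V IgG with A159V anti-PD1, and values below keep this order. Their median depths were 4179, 4163.5, 3343 and 3494.5 UMIs, a UMI being 1 counted RNA molecule. The WT anti-PD1 library stood apart from the others. It held 5 tumor-like cells against 2030, 2807 and 2101, and it held 1597 stromal-like cells against 134, 178 and 167. Many of its lymphoid cells formed clusters of their own. Lymphoid sub-clusters 3 (Havcr2-positive CD8-like, 505 cells), 5 (NK-like, 442 cells) and 8 (unnamed, 282 cells) drew 97.6%, 92.3% and 93.3% of their cells from this library. RNA of other cell types was also highest in its lymphocytes, where 9 transcripts of myeloid, stromal and tumor cells summed to 511 CPM (counts scaled to a common total) in Treg-like cells against 78.2, 90.3 and 154. The cause of this was not tested, and every result of that library is given with it in view. Of 33121 different barcodes, 107 occurred in a pair of libraries, and 3 of the Treg-like cells carried one.

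Cells were clustered with the 7 genes left out, and each cluster was named from other markers. Cells called Treg-like numbered 220, 271, 169 and 232, or 892 in all, with median depths of 2310, 2819, 1318 and 1977 UMIs. They were named from Il2ra, Ctla4, Tnfrsf4, Tnfrsf18, Izumo1r and Gpr83. Il2ra, the high-affinity IL-2 receptor chain, stood at 1182, 2094, 1231 and 1439 CPM in them against 77.2, 65.1, 37.5 and 51.3 CPM in conventional CD4-like cells. Gpr83 was near 0 in all 4 libraries (0, 4.33, 3.61 and 1.88 CPM), and the other 5 markers were detected. Cd4 stood at 165 to 231 CPM and Cd8a at 5.65 to 43.3 CPM. Of the T-like cells, Treg-like cells made up 23.5% (95% interval 20.8 to 26.4) of 935 in the WT IgG library, 22.2% (19.9 to 24.7) of 1219 in WT anti-PD1, 23.9% (20.8 to 27.2) of 708 in A159V IgG and 21.9% (19.4 to 24.5) of 1061 in A159V anti-PD1. These 4 intervals overlapped. All intervals here are at 95%, cover the counting of UMIs or cells only, and say nothing of the spread between mice. Each level below adds up the UMIs of all cells in a class and is expressed as CPM of that class, and they are compared for 1 gene at a time, since the counts of 3′ tags are not adjusted for length.

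Foxp3 was higher in Treg-like cells than in every other class with 50 cells in a library. Its level in them was 316, 442, 184 and 392 CPM, from 182, 408, 51 and 208 UMIs. In conventional CD4-like cells, the nearest class by lineage, it was 0, 7.23, 12.5 and 12.8 CPM, from 0, 2, 1 and 2 UMIs. The lowest Treg-like library stood above the highest library of each of those classes. Against conventional CD4-like cells the ratio was at least 26.0-fold in WT IgG, where the other class had no UMI and 3 counts were set in its place. It was 61.1-fold (16.8 to 506), 14.7-fold (2.52 to 592) and 30.6-fold (8.36 to 254) in the other libraries, each resting on 1 or 2 UMIs in conventional CD4-like cells. NK-like cells, which should lack the gene and had deeper cells, held 0, 3, 2 and 0 Foxp3 UMIs in 200, 447, 392 and 327 cells. Havcr2-positive CD8-like cells held 0, 19, 0 and 2 UMIs, so nearly all of theirs were in the WT anti-PD1 library (10.6 CPM). Of 511 T-like or NK-like cells with a Foxp3 UMI, 449 were Treg-like (87.9%, 84.7 to 90.6), or 86.7% (82.4 to 90.2) without the WT anti-PD1 library. The share was 85.7%, 89.8%, 84.0% and 88.6% in the separate libraries. A further 36 of the 511 (7.05%) lay in a cluster of 56 dividing cells whose second-best marker list was that of Treg cells. Its Foxp3 level was 177, 682, 188 and 235 CPM, from 21, 5, 11 and 19 cells.

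**Figure D1:**
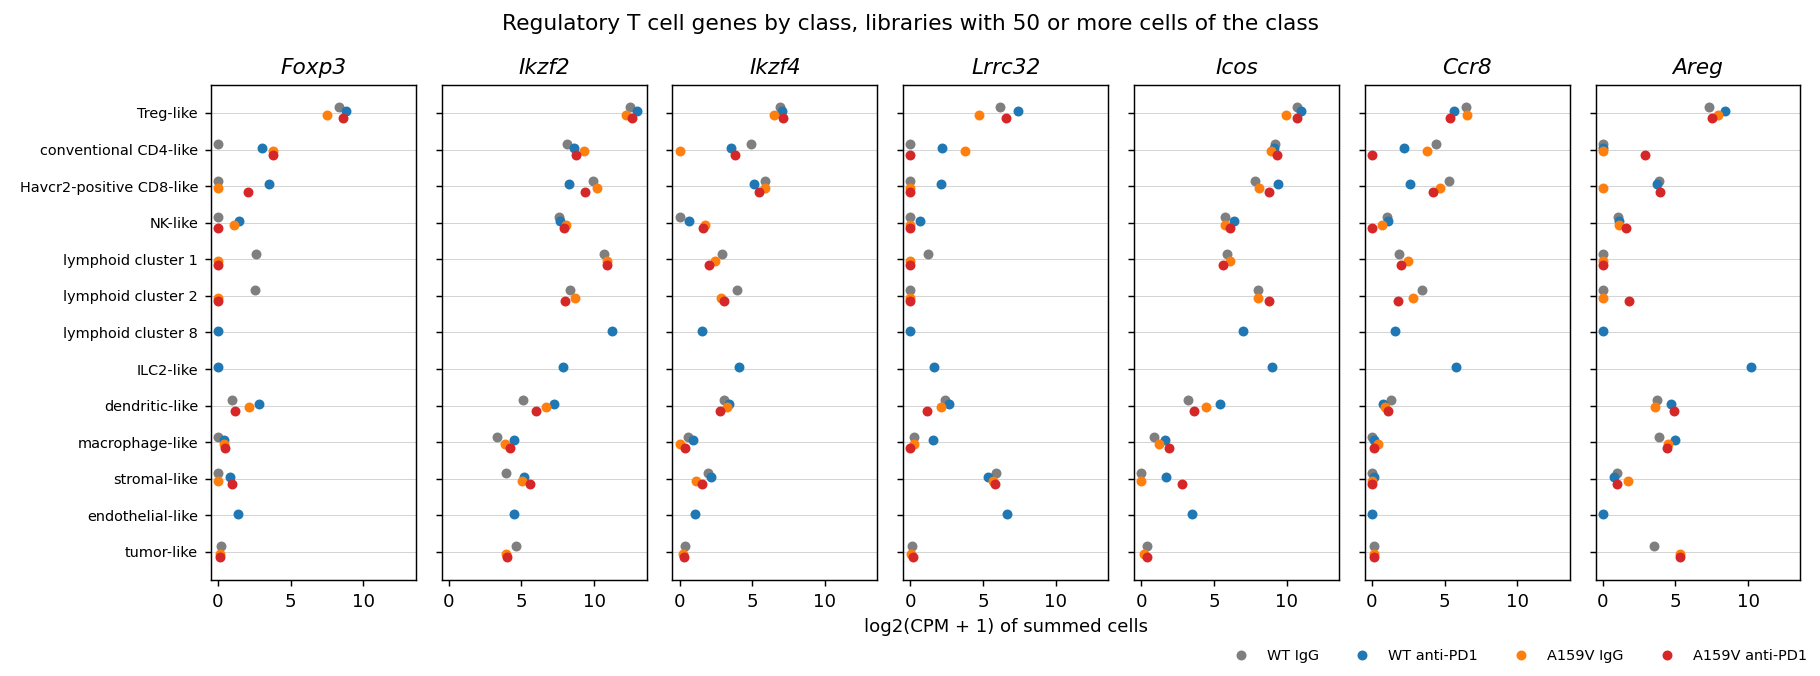
Levels of the 7 genes by class, on a log2(CPM + 1) axis with 1 point per library that held 50 or more cells of the class. Foxp3 stands at 184 to 442 CPM in Treg-like cells and below 13 CPM in conventional CD4-like, CD8-like and NK-like cells, whereas the points of Lrrc32 also lie high in stromal-like cells and those of Areg in ILC2-like cells.

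Ikzf2 was highest in Treg-like cells but was also found in other lymphocytes. It stood at 5764, 7748, 4628 and 6171 CPM in Treg-like cells. Unnamed lymphoid cluster 8 had 2386 CPM in WT anti-PD1, the one library with 50 of its cells, and unnamed lymphoid cluster 1 had 1624, 1873 and 1919 CPM in WT IgG, A159V IgG and A159V anti-PD1. Havcr2-positive CD8-like cells followed at 959, 314, 1157 and 675 CPM, conventional CD4-like cells at 280, 394, 638 and 429 CPM and NK-like cells at 189, 198, 272 and 237 CPM. Treg-like cells were 30.5, 39.0, 17 and 26.0 times as high as NK-like cells. Ikzf2 is a long gene with 92.6% intron, and 2 noncoding genes annotated inside it on the same strand, Gm28112 and Gm29112, are counted separately, so reads there cannot be told apart with certainty. Treg-like cells held 41.2% of all Ikzf2 UMIs, and the rest lay largely in other lymphocytes.

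Ikzf4 had fewer UMIs and was also highest in Treg-like cells, but the classes after them came in another order. Its Treg-like level was 122, 130, 90.3 and 138 CPM, and its second-highest class was Havcr2-positive CD8-like at 57.5, 33.4, 57.9 and 43.1 CPM. The ranges of these classes did not overlap. NK-like cells stood at 0, 0.574, 2.30 and 2.05 CPM, and conventional CD4-like cells at 28.4, 10.9, 0 and 12.8 CPM. Unnamed lymphoid clusters 8 and 1, which followed Treg-like cells for Ikzf2, had 1.93 CPM and 3.05 to 6.55 CPM of Ikzf4.

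Lrrc32 had sources outside the lymphocytes. Its Treg-like level was 71.3, 171, 25.3 and 94.2 CPM, from 41, 158, 7 and 50 UMIs, so the A159V IgG value rested on 7 molecules. Stromal-like cells carried it at 57.1, 40.1, 49.9 and 54.3 CPM and endothelial-like cells of the WT anti-PD1 library at 101 CPM. These ranges overlapped that of Treg-like cells. Over all libraries 69.4% of Lrrc32 UMIs lay in stromal-like cells, 13.5% in Treg-like and 10.2% in endothelial-like cells. In the NK-like cells of WT anti-PD1, whose stray RNA summed to 562 CPM, Lrrc32 stood at 0.574 CPM. The part of stray RNA in its Treg-like levels was not tested. Treg-like cells had no less than 2.02 times the conventional CD4-like level in any library. That smallest ratio, in A159V IgG, had an interval of 0.259 to 91.0.

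Icos was highest in Treg-like cells and was also carried by other T cells. It stood at 1700, 2031, 982 and 1659 CPM in Treg-like cells, 589, 561, 475 and 634 CPM in conventional CD4-like cells and 224, 669, 280 and 442 CPM in Havcr2-positive CD8-like cells. The lowest Treg-like library stood above the highest of both other classes. ILC2-like cells, scored only in WT anti-PD1 where they numbered 111, had 500 CPM. NK-like cells stood at 53.1, 82.6, 52.9 and 69.0 CPM. Treg-like cells were 2.89, 3.62, 2.07 and 2.62 times as high as conventional CD4-like cells, a narrower span of ratios than for any other of the 7 genes.

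Ccr8 was low everywhere. It stood at 86.9, 48.8, 90.3 and 39.6 CPM in Treg-like cells, from 50, 45, 25 and 21 UMIs. ILC2-like cells of WT anti-PD1 had 54.7 CPM, within the Treg-like range. Havcr2-positive CD8-like cells had 37.9, 5, 24.1 and 17.5 CPM, all below the lowest Treg-like library, and NK-like cells had at most 1.15 CPM.

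Areg was highest in ILC2-like cells. ILC2-like cells of the WT anti-PD1 library had 1154 CPM from 570 UMIs. The other libraries held only 20, 15 and 40 such cells, with 129, 4084 and 953 CPM. Treg-like cells had 155, 339, 238 and 181 CPM, from 89, 313, 66 and 96 UMIs. Among T cell subsets they were the main carriers, since conventional CD4-like cells held 0, 0, 0 and 6.41 CPM and Havcr2-positive CD8-like cells at most 14.4 CPM. The dividing cluster whose second-best list was that of CD8 cells reached 51.0 CPM in A159V anti-PD1, from 19 UMIs. The Areg UMIs came from few cells: 15, 50, 18 and 30 Treg-like cells had any, and the 5 richest held 77.5%, 56.5%, 69.7% and 46.9% of the UMIs, against 13.2%, 9.56%, 21.6% and 10.1% for Foxp3. A counting interval treats each UMI as independent and is too narrow for a gene held by so few cells.

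**Figure D2:**
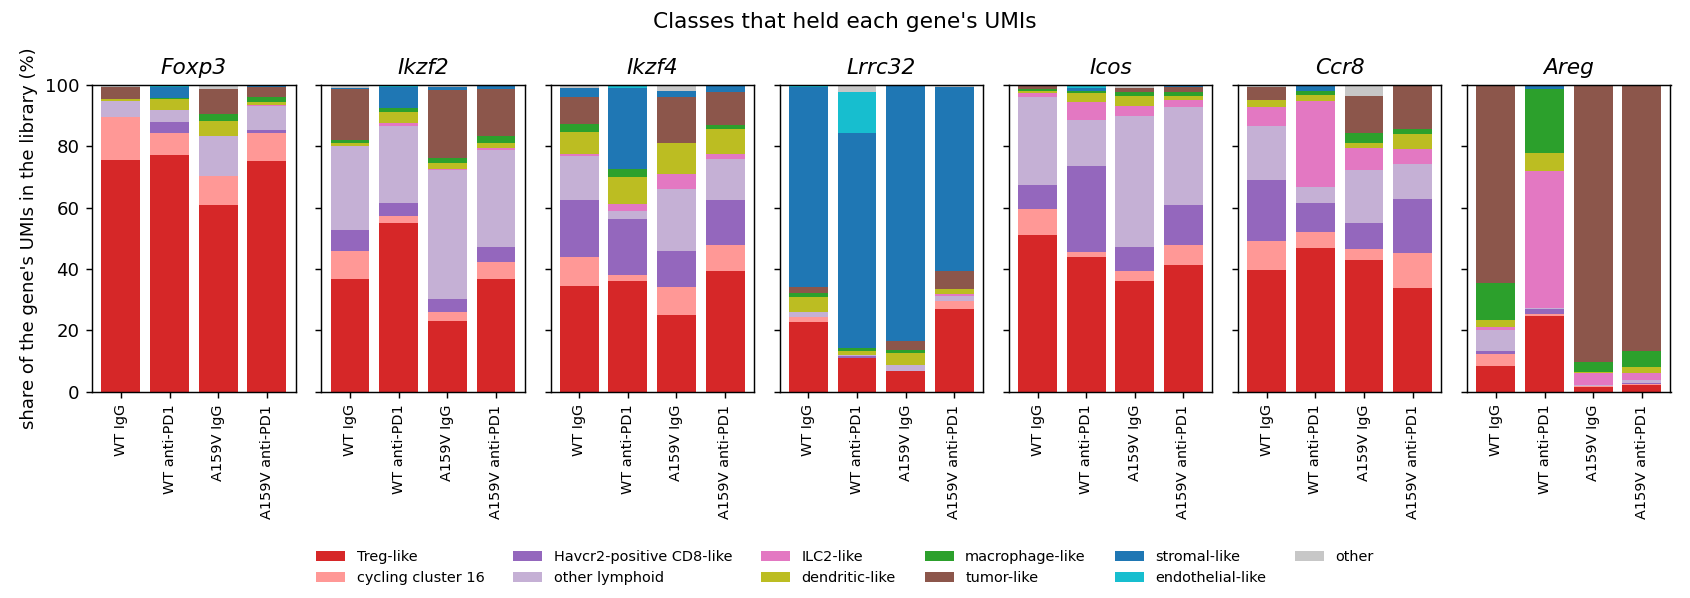
Share of each gene's UMIs, in percent, held by each class in each of the 4 libraries. Treg-like cells hold 60.7% to 77.3% of Foxp3 UMIs, whereas stromal-like cells hold most Lrrc32 and tumor-like cells hold most Areg except in WT anti-PD1.

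By the limit of a 2-fold excess on CPM + 1, 6 of the 7 genes were higher in Treg-like than in conventional CD4-like cells in all 4 libraries, beside 4% of the 5822 genes compared. Lrrc32 missed it with a log2 ratio of 0.96 in A159V IgG, and the same 6 genes passed without the WT anti-PD1 library. Without the added 1 CPM, and with 3 counts in place of 0, all 7 genes passed. With classes gated on marker UMIs per cell in place of clusters, only 1 passed, Foxp3. No test was made, because the classes came from clustering the same cells.

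The members were then followed between libraries within Treg-like cells. A gene is called higher or lower here when its log2 ratio of CPM + 1 was at least 1 in size and its level was at least 20 CPM in 1 of the 2 libraries. The IgG libraries each serve more than one comparison, so the 3 comparisons are not independent. Lower levels of a gene in the sum of a class can come from fewer cells that carry it or from less RNA in each.

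**Figure D3:**
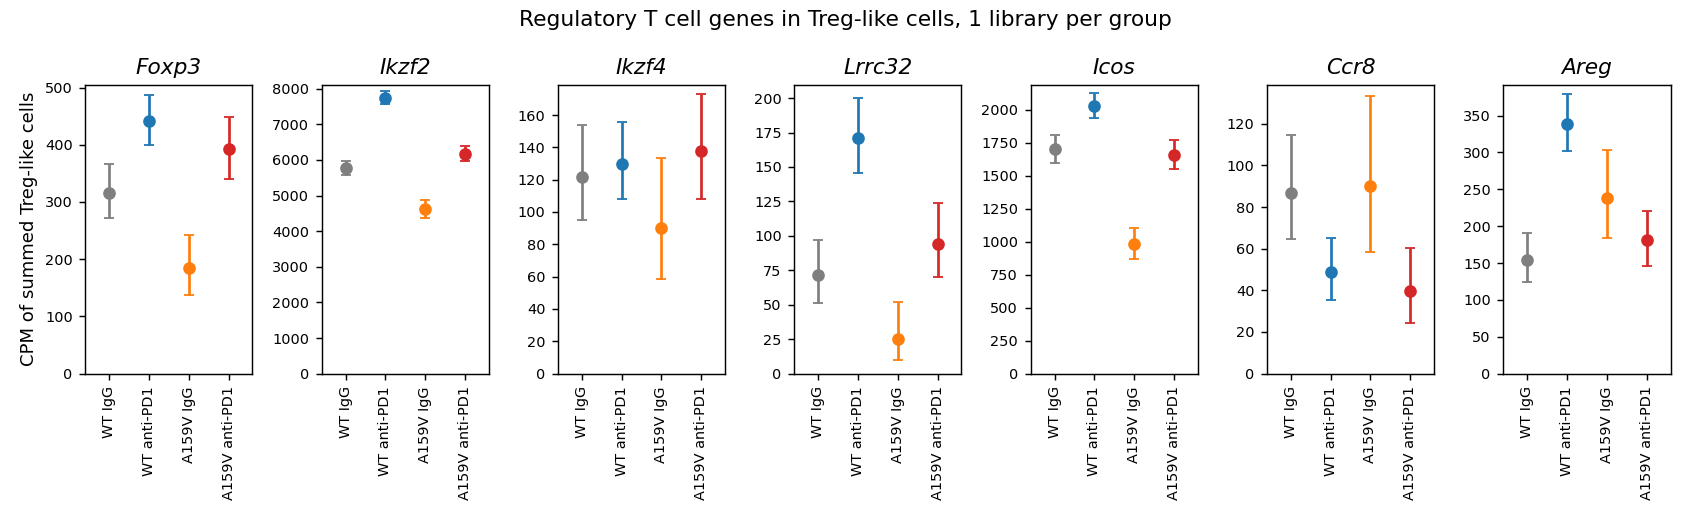
CPM of the 7 genes in Treg-like cells of each library, with bars for the 95% Poisson interval and a separate axis from 0 for each gene. A159V IgG has the lowest point for Foxp3, Ikzf2, Ikzf4, Lrrc32 and Icos, and both anti-PD1 libraries lie below both IgG libraries for Ccr8.

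Comparing A159V IgG with WT IgG asks how Treg-like cells differed between mutant and wild type tumors without checkpoint treatment. Foxp3, Ikzf2, Lrrc32 and Icos were lower in A159V IgG with intervals below 0, Areg was higher with its interval above 0, and Ikzf4 and Ccr8 had intervals that included 0. Only Lrrc32 was called (1 of 7, lower), beside 11.8% of the 6849 genes compared, of which 7.9% were higher and 3.85% lower. The median over the 7 genes was −0.43, beside 0.05 over all genes and −0.55 over the T cell receptor genes Cd3e, Cd3d and Trac. A159V IgG also had the shallowest Treg-like cells, and the part of this difference in depth was not tested beyond the thinned values given below.

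Among transcription factors, Foxp3 was 184 CPM (137 to 242) in A159V IgG against 316 CPM (272 to 366) in WT IgG, a log2 ratio of −0.78 (−1.22 to −0.33). Ikzf2 was 4628 against 5764 CPM, or −0.32 (−0.41 to −0.22). Ikzf4 gave −0.43 (−1.08 to 0.23), from 25 and 70 UMIs. All 3 factors thus had lower values in A159V IgG, and none reached the limit of 1. Among surface proteins, Lrrc32 gave −1.46 (−2.58 to −0.34), the value that rested on 7 UMIs. Icos was 982 CPM (869 to 1106) against 1700 CPM (1595 to 1810), or −0.79 (−0.98 to −0.60). Ccr8 was nearly equal at 90.3 and 86.9 CPM, or 0.05 (−0.63 to 0.74). Areg was 238 against 155 CPM, or 0.62 (0.16 to 1.08), with 24 of the 66 UMIs of A159V IgG in a single cell. In a separate, finer clustering its direction turned between Treg sub-clusters. In the Tnfrsf4-led sub-cluster Areg was 423 CPM in A159V IgG against 174 CPM in WT IgG, with intervals that did not overlap. In the Trat1-led sub-cluster it was lower, 50.5 against 132 CPM, from 7 and 11 UMIs in 101 and 51 cells. The Trat1-led intervals overlapped.

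Comparing WT anti-PD1 with WT IgG, the summed Treg-like cells of WT anti-PD1 had higher values of 5 genes, each with its interval above 0. Foxp3 was 442 CPM (400 to 487) against 316, a log2 ratio of 0.48 (0.23 to 0.73). Ikzf2 gave 0.43 (0.37 to 0.49), and Ikzf4 was nearly equal at 0.09 (−0.33 to 0.52). So the factors differed by less than the limit of 1. Lrrc32 was 171 CPM (145 to 200) against 71.3 CPM (51.1 to 96.7), or 1.25 (0.76 to 1.74). Icos gave 0.26 (0.15 to 0.37). Ccr8 was lower, 48.8 CPM (35.6 to 65.2) against 86.9 CPM (64.5 to 115), or −0.82 (−1.39 to −0.25). Areg was 339 CPM (303 to 379) against 155 CPM (124 to 190), or 1.13 (0.79 to 1.46). Lrrc32 and Areg were the genes called (2 of 7), both higher, beside 15.5% of the 6703 genes compared (7.53% higher and 8% lower), and the median was 0.43 beside 0.14 over all genes. The Areg call was lost in 3 of 13 alternatives, with a lowest value of 0.32 when Treg-like cells holding a CD8 or macrophage UMI were left out. That finer clustering gave Treg sub-clusters that do not match the Treg-like class cell for cell. A sub-cluster drawn at 87.1% from WT anti-PD1 held 217 of its cells and 17 of WT IgG. The WT values thus compare largely different sub-clusters. Those with most WT IgG cells (153 and 51) held 11 and 43 of WT anti-PD1. There Foxp3 was 463 against 311 CPM and 353 against 396, and Lrrc32 73.1 against 55.9 and 144 against 120. Ikzf2 was 6094 against 5617 and 8374 against 5959, and Icos 1877 against 1736 and 1607 against 1595. Areg was lower in WT anti-PD1 in both (48.7 against 174 CPM and 13.1 against 132 CPM, from 2 and 1 UMIs). A further 319 Areg UMIs of WT anti-PD1 lay in the first-named sub-cluster. Stromal RNA moved with this comparison, as Col1a1 was 191 against 17.4 CPM and Col3a1 232 against 12.2 CPM in the same Treg-like cells. Stromal-like cells carry Lrrc32, and NK-like cells of the same library had 0.574 CPM of it. The part of stray RNA or of mixed cells in the Lrrc32 value of Treg-like cells was not tested.

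Comparing A159V anti-PD1 with A159V IgG, the largest of the called differences was that of Lrrc32, 94.2 CPM (69.9 to 124) against 25.3 CPM (10.2 to 52.1), or 1.86 (0.76 to 2.96). Foxp3 was 392 CPM (340 to 449) against 184, or 1.09 (0.65 to 1.52). Ikzf2 gave 0.41 (0.32 to 0.51) and Ikzf4 0.60 (−0.05 to 1.25). The 3 factors were therefore all higher in the anti-PD1 library, Ikzf4 with an interval that included 0. Icos was 1659 against 982 CPM, or 0.76 (0.56 to 0.95). Ccr8 was lower, 39.6 CPM (24.5 to 60.5) against 90.3 CPM (58.4 to 133), or −1.17 (−1.99 to −0.35). Areg was 181 against 238 CPM, or −0.40 (−0.85 to 0.05). Foxp3, Lrrc32 and Ccr8 were called (3 of 7), beside 12.2% of the 6990 genes compared (5.71% higher and 6.51% lower), and the median was 0.60 beside 0.01 over all genes. The Foxp3, Icos and Lrrc32 levels of A159V anti-PD1 were near those of WT IgG (392 and 316, 1659 and 1700, 94.2 and 71.3 CPM), while A159V IgG lay below both.

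**Figure D4:**
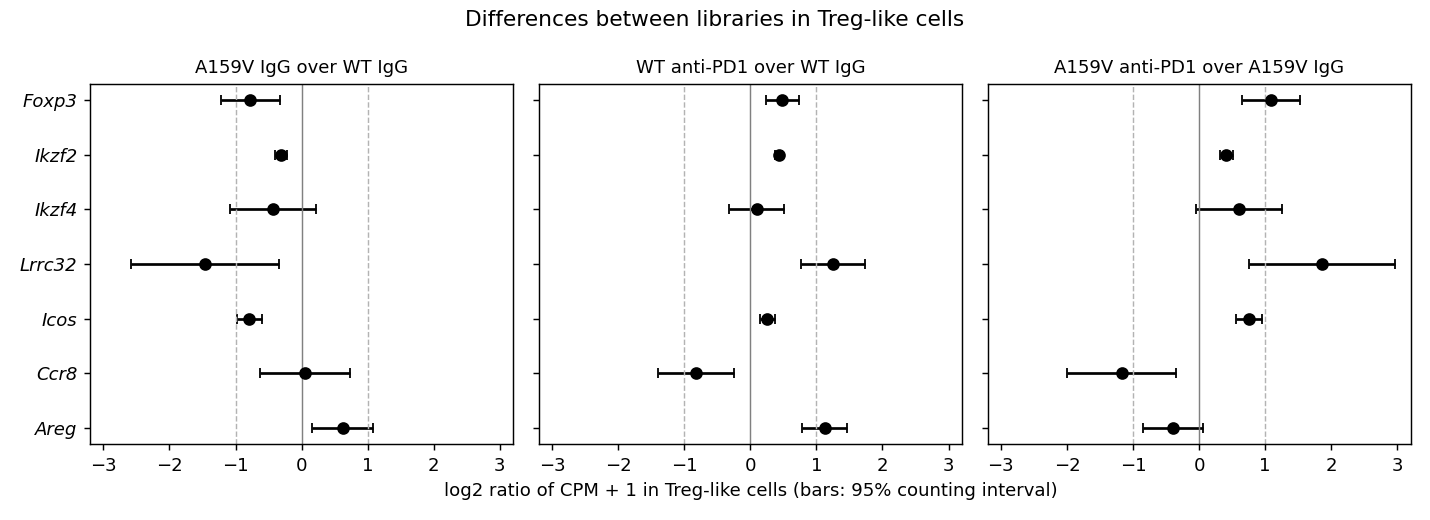
Log2 ratios of CPM + 1 in Treg-like cells for the 3 comparisons, with 95% counting intervals as bars and dashed lines at 1 and −1. Foxp3, Ikzf2, Lrrc32 and Icos lie below 0 for A159V IgG over WT IgG and above 0 for both anti-PD1 comparisons, while Ccr8 lies below 0 for both anti-PD1 comparisons.

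The anti-PD1 ratio in A159V minus that in WT was 0.60 (0.10 to 1.11) for Foxp3 and 0.50 (0.27 to 0.73) for Icos. It was −1.52 (−2.09 to −0.96) for Areg, which had opposite signs in the 2 genotypes, though its A159V ratio had an interval (−0.85 to 0.05) that included 0. The intervals of these 3 differences excluded 0 by counting error alone. Those of Ikzf2 (−0.01), Ikzf4 (0.51), Lrrc32 (0.60, −0.60 to 1.81) and Ccr8 (−0.35, −1.35 to 0.65) did not. None of these was compared with a spread between mice.

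To compare shares at 1 depth, cells were thinned to 1500 UMIs, which kept 167, 234, 67 and 164 Treg-like cells and left out 53, 37, 102 and 68. Foxp3 had a UMI in 39.5%, 42.3%, 25.4% and 39.6% of these cells (51.8%, 64.9%, 24.9% and 50.4% unthinned). NK-like cells, at median depths of 3177 to 3802 UMIs, showed 0%, 0%, 0.612% and 0% after the same thinning. A159V IgG remained the lowest, with a fold to WT IgG of 0.642 (0.409 to 1.01), and the 2 WT libraries were alike at a fold of 1.07 (0.842 to 1.36). The fold of A159V anti-PD1 to A159V IgG was 1.56 (0.994 to 2.45). Icos was detected in 82.6%, 86.8%, 62.7% and 84.1% of the same cells, against 6.12% to 11.8% of NK-like cells. Its folds were 0.759 (0.623 to 0.924), 1.05 (0.964 to 1.14) and 1.34 (1.10 to 1.63). Icos was thus lower in A159V IgG at equal depth too.

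Lrrc32 was detected in 7.78%, 18.8%, 4.48% and 9.15%, with a fold of 2.42 (1.34 to 4.34) for WT anti-PD1 over WT IgG. Ccr8 was detected in 10.2%, 5.98%, 10.4% and 4.88%, and its anti-PD1 folds were 0.588 (0.298 to 1.16) in WT and, in A159V, 0.467 (0.176 to 1.24), both with intervals that included 1. Both receptors were undetected in nearly all thinned NK-like cells, the highest share being 0.267% for Ccr8. Areg was detected in 7.19%, 15%, 14.9% and 12.2%, so WT IgG was lowest and A159V IgG and WT anti-PD1 were level. Its folds were 2.08 (0.943 to 4.58) for A159V IgG over WT IgG, 2.08 (1.11 to 3.89) for WT anti-PD1 over WT IgG and 0.817 (0.404 to 1.65) for A159V anti-PD1 over A159V IgG. Ikzf2 was found in 94.0% to 98.7% and Ikzf4 in 13.4% to 17.5%, and for both the 4 libraries lay close together.

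**Figure D5:**
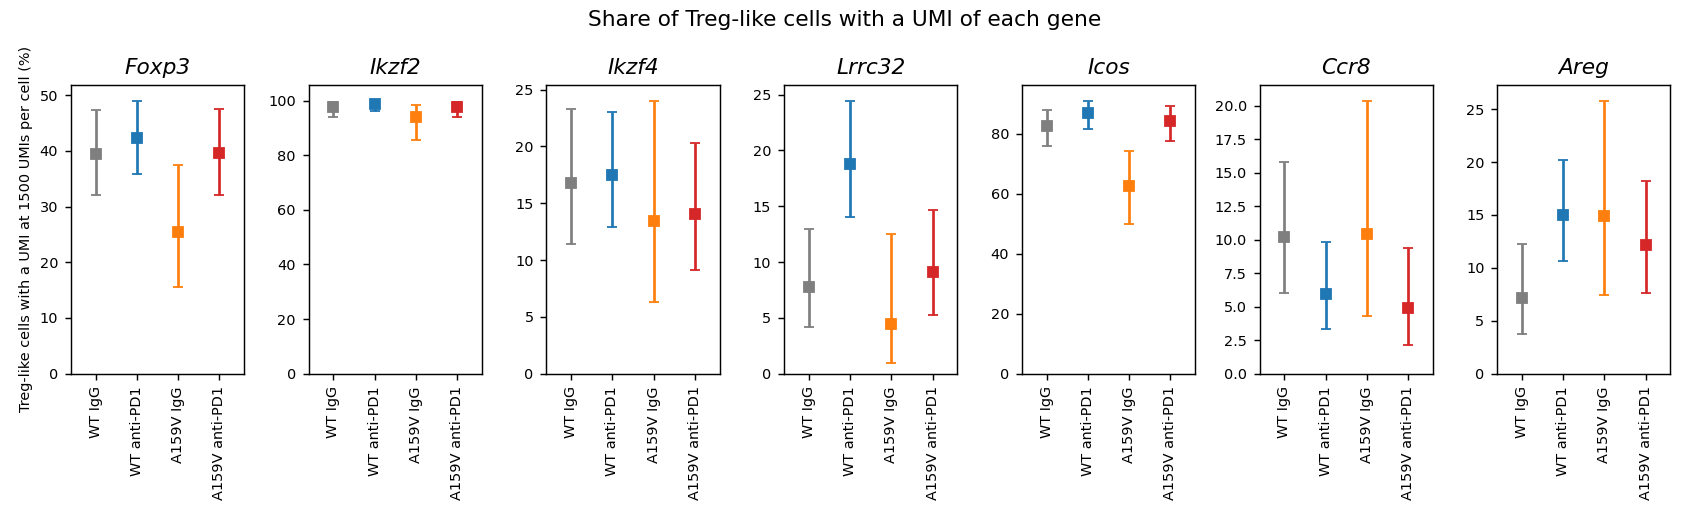
Percentage of Treg-like cells with a UMI of each gene after thinning every cell to 1500 UMIs, with exact 95% binomial intervals, from 167, 234, 67 and 164 cells. A159V IgG is lowest for Foxp3 (25.4%) and Icos (62.7%), and the WT anti-PD1 library is highest for Lrrc32 (18.8%).

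Over all T-like cells at 1500 UMIs, which does not depend on where the Treg-like class is drawn, Foxp3 had a UMI in 9.64% (7.67 to 11.9), 10.1% (8.39 to 12.1), 4.55% (2.72 to 7.09) and 8.56% (6.72 to 10.7) of 788, 1066, 396 and 806 cells. The thinning left out 147, 153, 312 and 255 cells, and unthinned shares were 14.2%, 15.8%, 6.78% and 12.4%. The share in A159V IgG was 0.471 times (0.286 to 0.777) that in WT IgG. The 2 WT libraries were alike, with a fold of 1.05 (0.795 to 1.39), and A159V anti-PD1 was 1.88 times (1.14 to 3.12) A159V IgG. Icos was detected in 37.6%, 50.8%, 23.5% and 42.1% of T-like cells. Its folds were 0.625 (0.512 to 0.763), 1.35 (1.21 to 1.5) and 1.79 (1.47 to 2.18). For both genes A159V IgG had the lowest share, but 312 of its 708 T-like cells were too shallow to enter.

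Within a thinned Treg-like cell the genes were seen together only in part. Of 632 cells, 5 had none of the 7 genes, 48 had 1, 233 (36.9%) had 2, 230 (36.4%) had 3, 101 (16%) had 4, 14 had 5, 1 had 6 and 0 had all 7. Cells with a Foxp3 UMI (247) and without (385) were set side by side. Icos was found in 86.6% (81.8 to 90.6) of the first and 79.7% (75.4 to 83.6) of the second. Areg was found in 15% (10.8 to 20.1) and 10.4% (7.53 to 13.9). The shares of Ikzf2 (98.4% and 97.1%), Ikzf4 (17% and 15.3%), Lrrc32 (11.7% and 11.9%) and Ccr8 (6.88% and 7.53%) lay closer together. These cells are pooled from 4 libraries, and the shares differed more within some of them. In A159V IgG, Icos was found in 82.4% of 17 cells with a Foxp3 UMI and 56% of 50 without. Areg in A159V IgG was found in 5.88% of the first and 18% of the second, and in A159V anti-PD1 in 20% and 7.07%, so its order turned between these libraries.

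Outside Treg-like cells, Ikzf2, Icos and Ccr8 were called in Havcr2-positive CD8-like cells. Ikzf2 was 314 CPM in WT anti-PD1 against 959 in WT IgG, a log2 ratio of −1.61 (−1.77 to −1.44), and 675 against 1157 in A159V, or −0.78 (−1.01 to −0.55). Icos was 669 against 224 CPM in WT, or 1.57 (1.33 to 1.82), and 442 against 280 in A159V, or 0.66 (0.25 to 1.07). Ccr8 was 5 against 37.9 CPM in WT, or −2.69 (−3.65 to −1.73). In WT, 3 of the 4 members that reached 20 CPM were thus called, beside 25.9% of the genes at that minimum, and in A159V 0 of 4 were called, beside 13.9%. In both genotypes Ikzf2 was lower and Icos higher in the anti-PD1 library. In WT anti-PD1, 97.6% of the Havcr2-positive CD8-like cells lay in lymphoid sub-cluster 3, while those of the other libraries lay mainly in sub-cluster 7, so the WT values compare different clusters of 1 name. A159V IgG against WT IgG gave 0 of 4 called, beside 14.1%.

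In the cluster of dividing cells whose second-best list was that of CD8 cells, Icos was 151 CPM in WT IgG, 61.9 CPM in A159V IgG and 247 CPM in A159V anti-PD1. The log2 ratios were −1.27 (−1.97 to −0.56) for A159V IgG over WT IgG, where Icos was called of the 2 members at the minimum, beside 12.5% of genes, and 1.98 (1.29 to 2.67) for A159V anti-PD1 over A159V IgG. There Icos and Areg were called of the 4 members at the minimum, beside 14.6%. Areg was 51.0 CPM from 19 UMIs there and had 0 UMIs in A159V IgG. A159V IgG was the lowest of the 3 libraries, and A159V anti-PD1 was the highest. In conventional CD4-like cells, Ikzf2 was 638 CPM in A159V IgG against 280 CPM in WT IgG or 1.18 (0.66 to 1.71), on the opposite side of 0 from its ratio in Treg-like cells. It was called with Ikzf4 (0 against 7 UMIs), so 2 of the 4 members at the minimum were called, beside 30.7% of genes, in classes of 68 and 120 cells. In WT anti-PD1 against WT IgG of these cells, Ikzf4 (3 against 7 UMIs) and Ccr8 (1 against 5 UMIs) were called lower, again 2 of 4, beside 27.6%. In A159V neither of the 2 members at the minimum was called after anti-PD1, beside 32%. In NK-like cells only Ikzf2 and Icos reached 20 CPM, and neither was called, beside 3.04%, 23.1% and 2.18% of the genes at that minimum. NK-like sub-cluster 5 drew 92.3% of its 442 cells from WT anti-PD1, so the WT anti-PD1 values here also compare largely different clusters. The NK-like Ikzf2 ratio between the IgG libraries was 0.53 (0.28 to 0.77).

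Areg in tumor-like cells was higher in both A159V libraries than in WT IgG. It was 10.4 CPM in WT IgG against 39.5 and 39.6 in the A159V IgG and anti-PD1 libraries, from 671, 3522 and 3612 UMIs. The 2 A159V libraries were level and both stood above WT IgG. Between the IgG libraries the log2 ratio was 1.83 (1.72 to 1.94), a 3.81-fold difference above that of 99.5% of genes, and Areg was called of the 2 members at the minimum, beside 5.51% of genes. Between the A159V libraries it was 0.00 (−0.06 to 0.07), and Areg, the 1 member at the minimum, was not called, beside 0.137%. At 1500 UMIs per cell, 0.892% of WT IgG tumor-like cells, 4.86% of A159V IgG and 4.71% of A159V anti-PD1 cells had an Areg UMI (10.5%, 30.0% and 33.6% unthinned). The first pair differed 5.45-fold (3.34 to 8.87). Tumor-like cells held 64.3%, 90.1% and 86.6% of the Areg UMIs of these 3 libraries. In WT anti-PD1, with its 5 tumor-like cells, ILC2-like cells held 44.8%, Treg-like cells 24.6% and macrophage-like cells 20.7%. The tumor-like class joined 3 clusters in different proportions, since 64.1% of WT IgG tumor-like cells lay in cluster 6 against 8.69% of those of A159V IgG. Within cluster 2, Areg was 13 CPM (11.5 to 14.7) in WT IgG and 53.1 CPM (51.0 to 55.3) in A159V IgG. Within cluster 1 it was 22.7 CPM (19.3 to 26.4) and 29.3 CPM (27.6 to 31.0). Within cluster 6 it was 6.60 CPM (5.80 to 7.47) and 8.34 CPM (6.06 to 11.2), intervals that overlapped. The difference thus had the same direction in each cluster and was much smaller outside cluster 2. Tumor cells of WT and A159V tumors are different cell lines by editing, so the substitution and any other difference between the clones cannot be told apart. The Areg promoter window printed above, with its CRE and TATA box, is that of this gene.

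Most partner genes of the members were highest in other cells, apart from the integrin chains Itgb8 and Itgav. Icosl, the Icos ligand, was at its highest in dendritic-like cells at 32.1, 40.6, 51.5 and 30.3 CPM. Of the Ccr8 ligands, Ccl1 was at 450 CPM in ILC2-like cells of WT anti-PD1, and in NK-like cells at 117, 0.574, 31.6 and 0 CPM, lower in both anti-PD1 libraries. Ccl8 was highest by its median in stromal-like cells at 338 to 490 CPM, and macrophage-like cells had 2433 CPM in WT anti-PD1 against 218, 276 and 568 CPM in the others. Egfr, the Areg receptor, was highest in stromal-like cells at 590, 475, 377 and 658 CPM. Tgfb1 was highest in ILC2-like cells at 431 CPM and stood at 167, 250, 152 and 147 CPM in Treg-like cells. The integrin chains that release TGF-β from Lrrc32 had their highest levels in Treg-like cells, Itgb8 at 473, 759, 354 and 414 CPM and Itgav at 1388 to 1709 CPM. Il33, which activates ILC2 and some Treg cells, was highest in stromal-like cells at 257 to 714 CPM. Il2 was highest in ILC2-like cells at 130 CPM.

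Lists of other Treg genes were read in Treg-like cells beside all genes compared. For A159V IgG over WT IgG, 7.9% of all genes were higher and 3.85% lower, with a median of 0.05. In A159V IgG over WT IgG, Treg signaling and surface genes gave 3 called higher and 1 lower of 14 at 20 CPM, with a median of −0.25. Nrp1 (36.5 to 86.6 CPM, 1.22), Il1rl1, the IL-33 receptor (33.0 to 90.3 CPM, 1.42), and Cd83 (1.38) were higher, and Itgae (−1.27) was lower. Effector genes gave 1 higher (Ebi3, an IL-35 chain, 1.11) and 1 lower (Lag3, −1.18) of 7, median −0.14. Transcription factors gave 0 higher and 3 lower of 15, median −0.28, namely Bach2 (60.8 to 21.7 CPM, −1.45), Nfil3 (−1.37) and Foxo1 (384 to 184 CPM, −1.06). Homing receptors gave 0 called of 7, median −0.17, partner genes 0 of 3, median −0.21, and the T cell receptor genes Cd3e, Cd3d and Trac 0 of 3, median −0.55. Of the stray RNA list 1 gene passed the minimum, Rhox5 (13.9 to 36.1 CPM, 1.32), a tumor transcript. Il1rl1 was also a leading gene of tumor-like cluster 1. That cluster held 43.1% of A159V IgG tumor-like cells and 9.06% of WT IgG ones. The part of tumor RNA in the Il1rl1 value of Treg-like cells was not tested.

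In WT anti-PD1 over WT IgG, the largest difference of a listed Treg gene was that of Il1rl1, 349 against 33.0 CPM or 3.36 (2.71 to 4.01), the only 1 of 14 signaling and surface genes called (median 0.12). Over all genes compared, 7.53% were higher and 8% lower, with a median of 0.14. Effector genes gave 2 higher of 7, the cytokine Il10 (377 to 830 CPM, 1.14) and the inhibitory receptor Lag3 (1.10), median 0.58. Transcription factors gave 1 higher of 15, Gata3 (123 to 350 CPM, 1.5), median 0.50. Naive and central genes gave S1pr1 higher (1.23) and Ccr7 lower (−1.54) of 6, median −0.35. Homing receptors gave 0 of 7, median 0.44, and T cell receptor genes 0 of 3, median −0.53. Of 4 partner genes Ccl8 was called higher, at 27.1 CPM in WT anti-PD1 against 0 in WT IgG, median 0.63, and NK-like and CD8-like cells of WT anti-PD1 held 24.1 and 26.7 CPM of it. All 4 stray RNA genes above the minimum (Lyz2, Apoe, Col1a1 and Col3a1) were called higher, median 2.73. Il1rl1 and Gata3 are also ILC2 genes, and the part of ILC2 RNA or of mixed cells in their values was not tested.

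In A159V anti-PD1 over A159V IgG, signaling and surface genes gave 2 higher and 1 lower of 14, median 0.16. Over all genes compared, 5.71% were higher and 6.51% lower, with a median of 0.01. The IL-2 signal transducers Stat5a (50.5 to 119 CPM, 1.22) and Stat5b (300 to 608 CPM, 1.02) were higher and Il10ra (−1.09) was lower. Effector genes gave Lag3 higher (1.11) of 7, median −0.05, and factors gave Bach2 (1.95) and Nfil3 (1.11) higher of 15, median 0.27. Naive and central genes gave 3 higher of 7, S1pr1 (1.5), Ccr7 (1.32) and Tcf7 (1.11), median 0.86. Homing receptors gave Cxcr6 (1.16) and Ccr2 (1.04) higher of 7, median 0.35. Partner genes gave 0 of 3, median −0.05, T cell receptor genes 0 of 3, median 0.07, and stray RNA 1 higher of 4, Col3a1 (1.48), median 0.81. Bach2, Nfil3 and Lag3 were thus called lower in A159V IgG against WT IgG and higher in the anti-PD1 library of A159V. Both of these comparisons use the A159V IgG library, so a value peculiar to it enters both.

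Genes alike in pattern to each member were found over 27 profiles of T cell subsets and NK-like cells, with Pearson correlations of log2(CPM + 10) over 9577 genes given as a description, since profiles of 1 library share its depth and stray RNA. Foxp3 was most like Ankrd55 (0.97), Lrrc32 (0.97) and Nckap5 (0.96). Lrrc32 was most like Foxp3 (0.97), Nckap5 (0.95) and Ankrd55 (0.95). These 2 members were therefore each among the 3 genes most like the other. Ikzf2 was most like Gm28112 (0.96) and Gm29112 (0.88), which lie inside it on its strand, and Cep85l (0.85). Ikzf4 was most like Neb (0.93), Samsn1 (0.92) and Sdcbp2 (0.92), and Icos most like Aebp2 (0.98), Dennd5a (0.94) and Atxn7l1 (0.94). Ccr8 was most like the TNF receptor family genes Tnfrsf18 (0.95) and Tnfrsf4 (0.91), with Sdf4 (0.93) between them. Areg was most like Ccn4 (0.95), Arl5a (0.94) and Il2ra (0.93). Among the 7 genes the lowest correlation was 0.40, between Ikzf2 and Icos.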

How the data were processed

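The libraries are single-cell RNA-seq by the 10x Genomics 3′ method. The authors deposited raw UMI counts per gene and cell for barcodes called as cells, 93030164, 54402632, 113779013 and 125227747 UMIs in 7802, 7430, 8685 and 9311 cells of the WT IgG and WT anti-PD1 libraries, then A159V IgG with A159V anti-PD1. The file headers and the study's methods name Cell Ranger 7.2.0 with the mm10 reference, where the submitters' processing notes name 5.0.1. The study's methods state that intronic reads were counted, and 57.9% to 92.6% of the length of each gene is intron. Flicr overlaps Foxp3 on its strand, and Ppp1r3f and Ccdc22 on the other.

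Cells above 500 genes were kept, leaving out 510, 590, 553 and 432 cells. Doublets were predicted per library with 2 simulated doublets per cell and removed at 0.8% per 1000 cells (425, 374, 529 and 631 cells). No background RNA was subtracted. Counts of the 4 libraries were clustered together without integration (2000 variable genes without the 7 members, 20 principal components, 20 neighbors, Leiden at resolution 1, seed 1), and lymphoid cells were clustered again, which gave 23 clusters and 17 sub-clusters. Listed Treg, naive and homing genes that were not markers were also left out of the variable genes. So were mitochondrial and ribosomal genes and the segment genes of T cell receptors and immunoglobulins. A cluster took its name from the marker list with the highest z score among lists with 3 markers found in 10% of cells. The z score had to reach 0.9, or a marker of the list had to be among the leading genes of at least 50 CPM. The leading genes could not favor another list. Clusters that failed were left unnamed and numbered.

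Levels are summed UMIs scaled to CPM with exact Poisson intervals. Log2 ratios used a pseudocount of 1 CPM and delta-method intervals, shares used exact binomial and Katz intervals, and folds between classes used the exact conditional binomial interval. A count of 0 was set to 3 counts for bounds. Comparisons across libraries needed 50 cells per class. Comparisons have 1 library per group, so no test was made. The ratio and thinning steps were tested on simulated data. All 7 genes are named. From each list, up to 5 genes per comparison with a log2 ratio of at least 1 in size were eligible, and for each member the 3 genes most alike. The result of naive and central T cell genes in A159V IgG against WT IgG is not reported here. The members and lists were chosen with earlier results of these data known. Alternatives changed the gene minimum, doublets, scaling, pseudocount, clustering and class definition. Python 3.11.15 was used with numpy 2.4.6, scipy 1.17.1, pandas 2.3.3, scikit-learn 1.9.0, igraph 0.11.9, leidenalg 0.10.2 and matplotlib 3.10.9.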

Additional observations from a re-analysis of the deposited data

Results flagged for a closer look

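In conventional CD4-like cells, Ikzf2 stood on opposite sides of 0 in the anti-PD1 comparisons of the genotypes, at a log2 ratio of 0.49 in WT and −0.57 in A159V. The difference of −1.06 (−1.74 to −0.38) was not tested against any spread between mice, and the interval covers counting error only. In Treg-like cells, Areg also had opposite signs, with 1.13 in WT and −0.40 in A159V, but the A159V interval (−0.85 to 0.05) included 0. Within both finer sub-clusters that held most WT IgG cells, Areg was lower in WT anti-PD1. Those WT anti-PD1 values rested on 2 and 1 UMIs, and the intervals overlapped in both sub-clusters. The difference between genotypes was not tested either.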

How the results depend on the processing

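No paired analysis was possible because each group is 1 library. The median log2 ratio of the 7 genes in Treg-like cells was −0.67 to −0.25 for A159V IgG over WT IgG and 0.38 to 0.68 for A159V anti-PD1 over A159V IgG over 15 alternatives each. For WT anti-PD1 over WT IgG it moved to 0.51 with cells of more than 1000 genes, 0.27 with doublets kept, 0.35 with median-of-ratios scaling and 0.50 with the dividing Treg-second cluster added, a choice made after seeing the data. The count of genes at least 2-fold higher in Treg-like than in conventional CD4-like cells was 5 to 7, except 1 (Foxp3) when classes were gated on marker UMIs per cell. With more than 1000 genes per cell no conventional CD4-like cluster was named, so no count was had. Folds of the Foxp3 share of T-like cells were 0.410 to 0.637, 1.04 to 1.22 and 1.59 to 2.30, and 86.0% to 88.9% of Foxp3-positive cells were Treg-like. Of 273 values of single genes, 28 left their main interval, and none of the called ones changed sign. Of those not called, Ccr8 (A159V IgG over WT IgG) took the other sign in 3 alternatives, down to −0.41, and Areg (to −0.06, same comparison) and Ikzf4 (to −0.05, WT anti-PD1) in 1 each. Areg spanned −0.06 to 2.19, 0.32 to 1.83 and −1.92 to −0.03, and was called in 10 of 13 alternatives in WT. Ccr8 in A159V spanned −1.33 to −0.43, called in 9 of 13, and Foxp3 0.98 to 1.32, called in 12 of 13. Lrrc32 was called in 13 of 13 for all 3 comparisons. Alternatives that leave out the WT anti-PD1 library, shared barcodes or Treg-like cells below 1500 UMIs were also chosen after seeing the data. The 1-library design limits every group difference, and depth limits Lrrc32 (7 UMIs in A159V IgG) and Ccr8 (21 to 50 UMIs).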

Other observations

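A separate clustering at a finer resolution of 2 gave 3 Treg sub-clusters, which do not match the Treg-like class cell for cell. They are described here by their leading genes and without a test, since the clusters were formed on the same cells. One of 361 cells was led by Tnfrsf4 and Itgb8 and drew 42.4% of its cells from WT IgG. One of 285 cells was led by Trat1 and Ccr4, had 342 CPM of Lef1 over all libraries and drew 35.4% from A159V IgG. One of 249 cells was led by Nckap5 and Il10 and drew 87.1% from WT anti-PD1. Foxp3 stood at 333, 322 and 425 CPM in them, and Ikzf4 at 123, 115 and 129 CPM. Summed over libraries, Areg stood at 220, 61.7 and 367 CPM and Il10 at 382, 139 and 831 CPM. These orders did not hold in every library, since Areg in WT IgG had 0 UMIs in the 17 cells of the Nckap5-led sub-cluster against 132 CPM in the Trat1-led one, and Il10 in A159V anti-PD1 was 40.8 against 83.7 CPM. Ccr8 stood at 80.6, 37.5 and 51.5 CPM over all libraries. Il1rl1 stood at 64.9, 130 and 347 CPM. Their median depths were 2312, 1368 and 3058 UMIs.

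Among 77 thinned Treg-like cells with an Areg UMI, Foxp3 was detected in 48.1%, against 37.8% of those without one. Lrrc32 was detected in 19.5% (11.3 to 30.1) against 10.8% (8.35 to 13.7), intervals that overlapped. Ccl1 in NK-like cells rested on 115 and 55 UMIs in the WT and A159V IgG libraries and on 1 and 0 UMIs in the matching anti-PD1 libraries. NK-like sub-cluster 5 drew 92.3% of its cells from WT anti-PD1, so the WT counts come from largely different clusters.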
